A study of Mus musculus with 18 samples.

Results

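Mouse embryonic fibroblasts (MEFs), connective tissue cells grown from embryos, that lack the transcription factor ATF4 (Atf4-/-) were compared with wild-type (WT) MEFs after 3 h of amino acid deprivation. The comparison takes the 3 Atf4-/- arrays and the 3 WT arrays whose titles give AAD (amino acid-deprived) medium, 6 of the 18 arrays of the study, and sets the final level of each gene in the Atf4-/- cells against that in WT cells. It covers the autosomal genes, 13224 of the 13728 genes tested. All MEFs were isolated at embryonic day E13.5, passaged 2 to 3 times, plated for 24 h and then moved for 3 h to normal medium or to AAD medium, a Krebs-Ringer salt buffer with supportive supplements. MEFs were isolated separately for each genotype, so the Atf4-/- cells lacked the gene before as well as during the deprivation. The study also held Cebpg-/- MEFs, and each of its 6 groups (3 genotypes in each of the 2 media) had 3 arrays. The labels give neither the strain background nor whether the arrays of a group came from separate embryos. So a p-value here speaks only of the spread between these arrays, which may be technical apart from a sex difference within Atf4-/- described below.

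ATF4 is a basic leucine zipper (bZIP) transcription factor whose mRNA is translated when the initiation factor eIF2 is phosphorylated, as the kinase GCN2 does when uncharged tRNAs build up. This pathway is the integrated stress response. ATF4 pairs with C/EBP proteins, among them C/EBPγ (gene Cebpg), on C/EBP-ATF response elements, and its known targets make, import and load amino acids onto tRNA. The question the comparison answers is which genes stand at another level in starved cells when ATF4 is missing.

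All values are log2 levels from Affymetrix Mouse Genome 430 2.0 arrays. Differences are Atf4-/- minus WT ± the standard error from limma, with n = 3 arrays a group, and levels are means ± SD over 3 arrays. Calls were made where limma's p, adjusted by Benjamini-Hochberg over all genes tested, was under 0.05. The median residual SD of a gene was 0.109, and the small number of arrays limits the precision. A level at or under 4.65, below which a gene had to rise in at least 1 group to be tested, lies in the dim range of the arrays. A difference whose lower end is there is called as measured, but its size is less certain.

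The embryos' sex was not the same in both genotypes, as 4 genes of the sex chromosomes show. Xist, the RNA of the inactive X chromosome, stood at 5.28, 5.47 and 5.50 in the 3 WT AAD arrays and at 5.42, 12.31 and 12.31 in Atf4-/- AAD replicates 1, 2 and 3. The Y-linked genes Kdm5d, Eif2s3y and Uty were between 7.04 and 8.80 in the 3 WT arrays and Atf4-/- replicate 1, and between 2.70 and 3.28 in Atf4-/- replicates 2 and 3. The same replicate numbers were Xist-high in normal medium, so the Atf4-/- arrays did not all come from the same embryo. Counts are therefore also given with Atf4-/- replicate 1 as the only Atf4-/- array, a fit in which the lone array is assumed to vary like the arrays of the other groups. The fibroblast label was checked against 11 fibroblast markers, of which 11 were above 4.65, among them Vim at 14.00 ± 0.01 in WT AAD cells and 13.97 ± 0.01 in Atf4-/- AAD cells. Of 7 endothelial markers 6 were never above that level, and of the 4 erythroid markers on the array 3 were never above it. In other lists more passed it in some group: 13 of 13 macrophage, 10 of 13 epithelial and 7 of 8 neural markers on the array. So did 4 of 5 chondrocyte and bone, 3 of 4 adipocyte and 5 of 10 skeletal muscle markers. Whether other cell types were present was not tested.

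Atf4 itself was read first, since it checks the labels. Its brightest probe set read 12.81, 12.80 and 12.92 in the WT AAD arrays and 6.19, 6.55 and 6.60 in the Atf4-/- AAD arrays. The arrays of each genotype lay together and far from the other genotype. The difference was -6.40 ± 0.09 (adjusted p = 1.94e-16, limma), an 84.3-fold lower level. A second Atf4 probe set went from 11.36 in WT to 3.50 in Atf4-/- cells, and the dimmest went from 4.96 to 4.52. The labels do not say which stretch of the gene the deletion removes, and whether the probes lie in it was not examined.

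Over the autosomes, 7185 of 13224 genes (54.3%) were called, 4147 higher (31.4%) and 3038 lower (23.0%) in the Atf4-/- cells. At least 2-fold differences were found for 470 genes higher (3.55%) and 555 lower (4.2%). The 3 arrays of the genotypes did not overlap for 8092 genes (61.2%), and the Atf4-/- arrays were all under the WT arrays for 3523 (26.6%). The typical difference was small, with a median size of 0.25 over all genes tested. The median signed difference was 0.02. With each array centred on its median, which moves the median by -0.09, the calls split into 3380 higher and 4224 lower, so the excess of higher over lower calls turned with the scaling. With Atf4-/- replicate 1 alone, 3126 genes were higher and 2229 lower, and 441 and 528 by at least 2-fold. Each share of a gene group below is to be read against these shares over all genes.

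**Figure D1:**
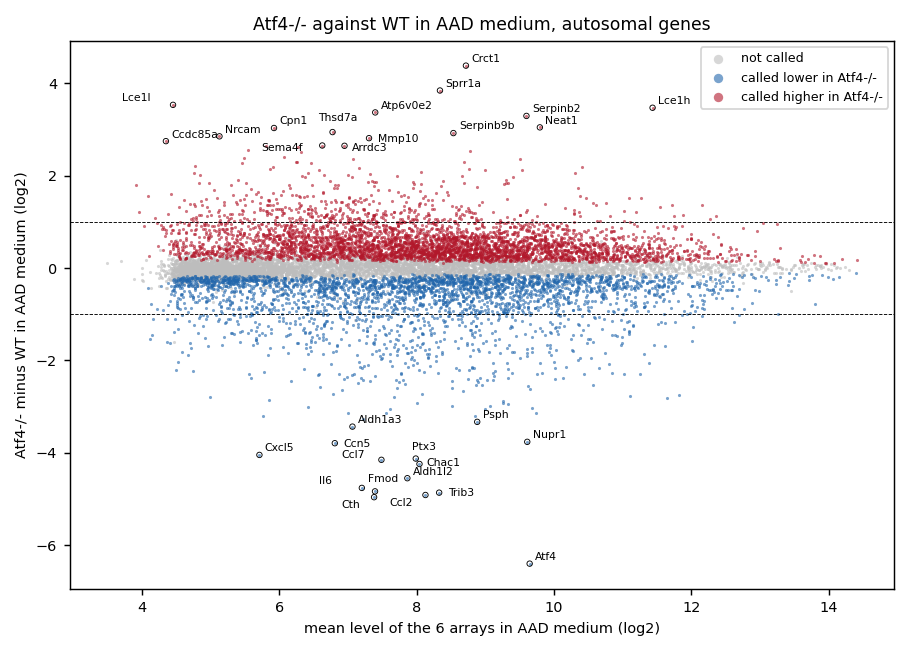
Difference Atf4-/- minus WT in AAD medium (log2, vertical axis) against the mean level of the 6 arrays (log2, horizontal axis) for 13224 autosomal genes, with called genes in colour, a 2-fold difference marked by dashed lines, and the 15 largest falls and rises named. Atf4 (-6.40), Cth (-4.96) and Ccl2 (-4.91) lie lowest and Crct1 (4.38) and Sprr1a (3.84) highest.

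The 15 largest falls were Atf4, Cth, Ccl2, Trib3, Fmod, Il6, Aldh1l2, Chac1, Ccl7, Ptx3, Cxcl5, Ccn5, Nupr1, Aldh1a3 and Psph. They held 3 kinds of gene beside Atf4: stress response and amino acid genes (Cth, Trib3, Aldh1l2, Chac1, Nupr1, Psph), secreted inflammatory factors (Ccl2, Il6, Ccl7, Ptx3, Cxcl5) and genes of the matrix and of retinoic acid synthesis (Fmod, Ccn5, Aldh1a3). That grouping was made after the genes were known. The differences ran from -6.40 for Atf4 to -3.33 for Psph.

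The promoters of genes that were lower were searched for the core of the C/EBP-ATF response element. The letters TGATGNAA were searched on both strands from 250 bases before to 50 bases after each start site in the RefSeq promoter table (GRCm38.p6), and they cannot overlap the full CRE palindrome TGACGTCA, which was searched too. The core was in 43 of 526 windows (8.17%) of genes lower by at least 2-fold, in 2.25% of windows of genes lower by less, in 2.23% for genes not called, in 2.87% for genes at least 2-fold higher, and in 2.29% of the 13534 windows of all autosomal genes tested. The CRE palindrome was in 3.61% and 2.87% of the windows of genes at least 2-fold lower and of all genes tested. Among the lists described below, 5 of 15 windows of cytosolic tRNA synthetases, 6 of 27 of stress response regulators, 4 of 33 of transporters and 0 of 16 of serine and one-carbon genes held the core. Among the groups made by call and size, the share was thus largest for the genes that were at least 2-fold lower, as a description with no test, and a match gives the letters and not a site of binding. The stretches show how the core sits in the 14 genes with values in the text whose core ends before the start site. Of these 14, 13 were lower and 1, Mmp10, higher, a split shaped by which genes the text names. Of all 292 tested genes with the core, 40 were lower by at least 2-fold, 56 lower by less and 127 not called. Another 56 were higher by less than 2-fold and 13 by at least 2-fold. Cores of Trib3, Yars, Slc1a4 and Aspn, and a further core of Aars, lie at or past the start and are not printed. The core is in capitals (on the strand shown or its complement), from RefSeq, GRCm38.p6, 5′ to 3′ on the gene's strand:
Chac1, chr2:119351023-119351082, + strand: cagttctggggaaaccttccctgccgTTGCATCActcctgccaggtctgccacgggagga
Nupr1, chr7:126625547-126625606, - strand: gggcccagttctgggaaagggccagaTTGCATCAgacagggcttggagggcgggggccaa
Herpud1, chr8:94386291-94386350, + strand: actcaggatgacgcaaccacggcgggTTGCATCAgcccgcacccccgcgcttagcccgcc
Slc7a11, chr3:50443646-50443705, - strand: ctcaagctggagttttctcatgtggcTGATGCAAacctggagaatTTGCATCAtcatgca
Idi1, chr13:8885399-8885458, + strand: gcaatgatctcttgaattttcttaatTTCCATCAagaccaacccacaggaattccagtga
Fgf21, chr7:45615596-45615655, - strand: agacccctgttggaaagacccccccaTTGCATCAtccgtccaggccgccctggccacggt
Asns, chr6:7693210-7693258, - strand: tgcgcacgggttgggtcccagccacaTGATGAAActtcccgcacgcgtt
Jdp2, chr12:85599357-85599415, + strand: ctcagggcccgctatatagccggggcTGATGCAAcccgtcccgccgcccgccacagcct
Atf3, chr1:191183410-191183469, - strand: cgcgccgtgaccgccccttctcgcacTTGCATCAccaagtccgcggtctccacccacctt
Aars, chr8:111033704-111033763, + strand: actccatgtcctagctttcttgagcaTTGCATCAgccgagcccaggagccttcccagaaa
Tars, chr15:11399659-11399699, - strand: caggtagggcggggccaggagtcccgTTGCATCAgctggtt
Tnfaip3, chr10:19011964-19012011, - strand: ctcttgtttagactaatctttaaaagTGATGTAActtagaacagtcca
Gars, chr6:55037945-55038000, + strand: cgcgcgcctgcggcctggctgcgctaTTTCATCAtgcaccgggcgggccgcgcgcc
Mmp10, chr9:7502183-7502242, + strand: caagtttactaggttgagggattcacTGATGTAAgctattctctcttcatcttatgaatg
The first base of the capitals lay between position -193 (Chac1) and -15 (Tars) from the start site. In 9 of these 14 genes the capitals spell TTGCATCA or its complement, and Slc7a11 holds both, while Idi1, Asns, Tnfaip3, Gars and Mmp10 hold another form of the core.

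The regulators of the integrated stress response were mostly lower. Of 28 members tested, 19 were lower, 2 higher and 7 not called, 14 were lower by at least 2-fold, and the median difference was -0.97. Trib3, a pseudokinase that damps stress signalling, read 10.73, 10.81 and 10.74 in the WT arrays and 6.02, 5.91 and 5.76 in the Atf4-/- arrays, a difference of -4.86 ± 0.18 (adjusted p = 1.45e-11, limma). Chac1, an enzyme that breaks down glutathione, read 10.29, 10.27 and 9.92 in WT and 5.82, 5.77 and 6.17 in Atf4-/- cells (-4.24 ± 0.22). The arrays of the genotypes did not overlap for either gene, and the levels were 29.0-fold and 18.9-fold lower.

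Nupr1, a small nuclear stress protein, read 11.70, 11.34 and 11.44 in WT and 7.76, 7.19 and 8.24 in Atf4-/- arrays (-3.76 ± 0.29). The Atf4-/- arrays of Nupr1 spread over more than a log2 unit, with replicate 2 lowest in both media, and still did not reach the WT arrays. Other bZIP factors were lower too. Atf5 was lower by 7.52-fold (-2.91 ± 0.11), the dimer partner Cebpg by 5.34-fold (-2.42 ± 0.11, from 10.33 ± 0.12 to 7.91 ± 0.13), Jdp2, which represses AP-1 sites, by 4.46-fold (-2.16 ± 0.09) and Nfil3, a repressor of clock genes, by 4.17-fold (-2.06 ± 0.09). Cebpb was 2.38-fold lower (-1.25 ± 0.09). The Jdp2 value rests on its brightest probe set, as another differed by -0.14. The arrays of the genotypes overlapped for none of the 19 lower members, and they did not overlap for 61.2% of all genes. Members picked by their call seldom overlap. Likewise, 29 of 29 lower DNA replication and mitosis genes and 28 of 28 lower immediate early genes did not.

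The eIF2 kinases and phosphatase subunits were not of one kind. Among the kinases, Eif2ak1 was higher by 0.48 ± 0.14, while 2 other probe sets above the filter differed by -0.23 and -0.29, and Eif2ak4, which encodes GCN2, differed by -0.25, and neither passed the threshold with Atf4-/- replicate 1 alone (0.48, adjusted p = 0.108, and -0.28, adjusted p = 0.106, limma). The eIF2 phosphatase subunit Ppp1r15b was lower (-1.35 ± 0.07). The other subunit, Ppp1r15a, which is part of the feedback that ends the response, was at 10.41, 10.56 and 10.46 in WT and 10.23, 10.38 and 10.29 in Atf4-/- cells (-0.18 ± 0.08, adjusted p = 0.0788, limma). The arrays of Ppp1r15a did not overlap, but the difference missed the threshold. Stc2 (-0.02 ± 0.08) and Eif2ak2 (0.21 ± 0.09) were not called either. Eif2ak2 differed by more, 0.39, with Atf4-/- replicate 1 alone. Without WT replicate 3, 0 members of the list were higher.

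The enzymes of serine synthesis and of one-carbon metabolism, which passes single carbons from serine to folate in mitochondria and cytosol, were lower in 9 of 16 members. The 9 included 7 with at least a 2-fold difference, 3 members were higher (1 with Atf4-/- replicate 1 alone) and 4 not called, with a median of -0.35. Along the serine pathway, Phgdh was lower by 4.88-fold (-2.29 ± 0.18), Psat1 by 4.82-fold (-2.27 ± 0.07), and Psph differed most (-3.33 ± 0.07). Psph read 10.58, 10.59 and 10.48 in WT and 7.20, 7.21 and 7.24 in Atf4-/- cells. Its Atf4-/- arrays lay close together and well under WT. Phgdh was less even, with Atf4-/- replicate 3 at 10.56 above replicates 1 and 2 at 9.93 and 9.85, and WT at 12.43, 12.40 and 12.37.

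The mitochondrial folate enzymes were lower as a series. Shmt2 differed by -2.41 ± 0.11, Mthfd2 by -3.13 ± 0.14, Mthfd1l by -1.61 ± 0.10 and Aldh1l2 by -4.55 ± 0.12. Aldh1l2, which oxidises formyl-folate to carbon dioxide in mitochondria, read 10.11, 10.09 and 10.22 in WT and 5.62, 5.82 and 5.34 in Atf4-/- cells, 23.4-fold lower. The cytosolic Ahcy, which splits adenosylhomocysteine, was lower by less (-0.33 ± 0.07). Of the cytosolic counterparts, Shmt1 differed by -0.37 ± 0.14 (adjusted p = 0.0342, limma), and by -0.13 with Atf4-/- replicate 1 alone. Mthfd1 (-0.07) and Aldh1l1 (-0.14) were not called. Aldh1l1 averaged 4.67 in WT and 4.53 in Atf4-/- cells, in or near the dim range, so a fall could hardly be seen. Mthfd2l, the second mitochondrial form of Mthfd2, was higher by 0.74 ± 0.08. The difference between compartments was not tested.

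Amino acid synthesis and transamination genes divided. Of 16 members, 6 were lower, 5 higher (3 with Atf4-/- replicate 1 alone) and 5 not called, and the median of 0.07 was near that of all genes. The lower members included Asns, which makes asparagine, at 12.14, 12.16 and 12.18 in WT and 10.01, 9.85 and 9.77 in Atf4-/- cells (-2.28 ± 0.08, 4.87-fold). Aldh18a1, the first enzyme of proline synthesis, differed by -2.94 ± 0.07, Bcat1, which transaminates branched-chain amino acids in the cytosol, by -3.05 ± 0.11, Gpt2, the mitochondrial alanine transaminase, by -2.15 ± 0.09, and Oat by -0.85 ± 0.08. On the other side Glul, glutamine synthetase, read 8.30, 8.38 and 8.07 in WT and 9.19, 9.45 and 9.39 in Atf4-/- cells, 2.14-fold higher (1.10 ± 0.12). The isozymes Bcat2 (0.09) and Gpt (0.04) were not called. Pck2, the mitochondrial phosphoenolpyruvate carboxykinase, was named after its values were seen, and was lower by 9.17-fold (-3.20 ± 0.09).

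**Figure D2:**
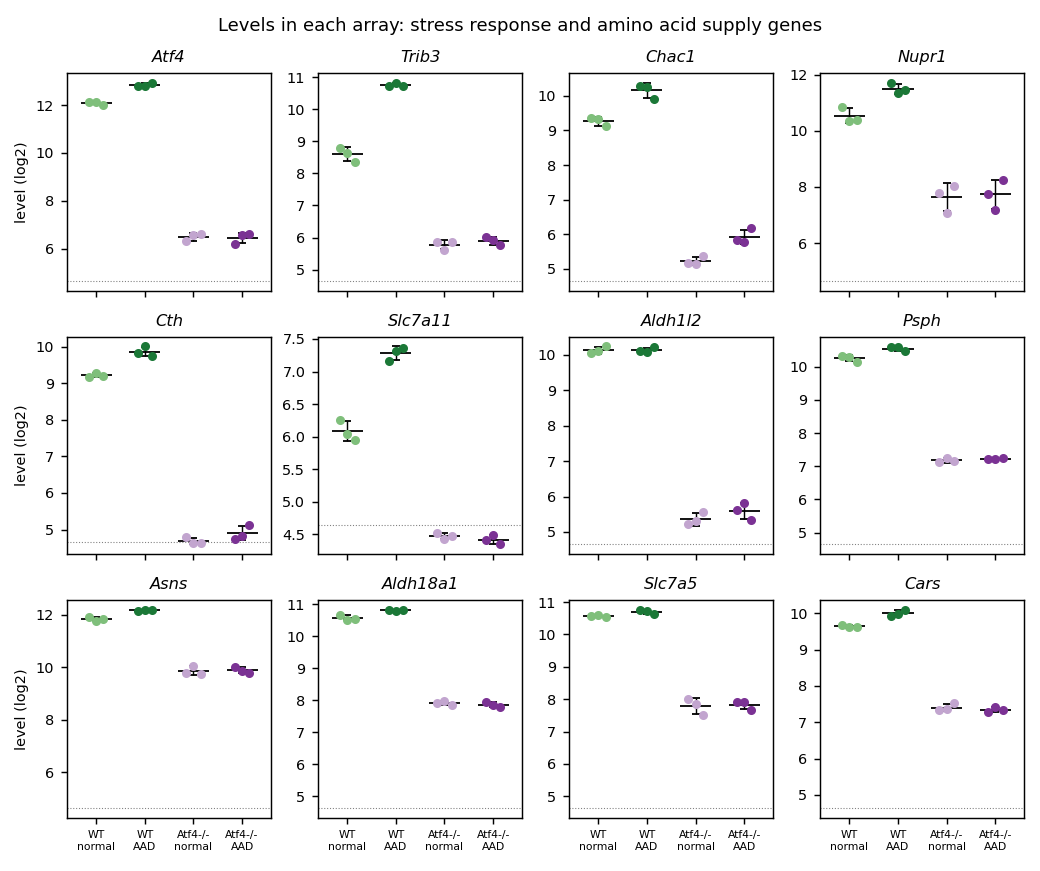
Level (log2, vertical axis) of 12 genes in each of the 12 WT and Atf4-/- arrays, by genotype and medium, with each point an array, the bar the mean of 3 arrays, the error bar the SD and the dotted line the level of 4.65. For all 12 genes the 3 Atf4-/- AAD arrays lie below the 3 WT AAD arrays, and Cth and Slc7a11 come near the dotted line.

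An enzyme that makes cysteine and an importer of its oxidised form were among the lowest genes in Atf4-/- cells. Cth, which makes cysteine from cystathionine, averaged 9.86 ± 0.13 in WT, with 9.74 as its lowest array, and read 4.75, 4.83 and 5.12 in Atf4-/- cells (-4.96 ± 0.16), a 31.1-fold difference with the Atf4-/- arrays close to the dim range. Slc7a11, the cystine importer, read 7.16, 7.31 and 7.36 in WT and 4.41, 4.49 and 4.35 in Atf4-/- cells (-2.86 ± 0.13), where the Atf4-/- arrays are under 4.65. So the size of the Slc7a11 difference is less certain. Of the 19 cysteine and glutathione members, 5 were lower, 6 higher and 8 not called (median 0.17), and 2 of the higher ones passed 2-fold: Ggct (1.41 ± 0.32) and Cdo1 (1.39 ± 0.27). With Atf4-/- replicate 1 alone 3 members were higher, and Ggct was not called (0.97, adjusted p = 0.104, limma), whose other probe sets above the filter differed by -0.16 and 0.07. The glutathione-making enzymes Gclc (0.21) and Gss (0.65) were higher and Gclm (0.17) was not called.

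Of 28 amino acid transporters, 14 were lower, 4 higher and 10 not called (median -0.17), and 7 were lower by at least 2-fold. Slc7a5, the exchanger of large neutral amino acids, read 10.75, 10.72 and 10.63 in WT and 7.90, 7.90 and 7.68 in Atf4-/- cells (-2.87 ± 0.11, 7.32-fold). Its heavy chain Slc3a2, which also carries Slc7a11, differed by less (-1.50 ± 0.06, 2.82-fold). The arginine importer Slc7a1 differed by -1.37 ± 0.09, and the neutral amino acid carriers Slc1a4 by -2.09 ± 0.10 and Slc1a5 by -1.15. The glycine carrier Slc6a9 differed by -1.51 ± 0.10, and by -0.26 in another probe set. The 4 higher members were Slc7a2 (0.36), Slc36a1 (0.48), Slc43a2 (0.52) and the lysosomal arginine sensor Slc38a9 (0.64), each by less than 2-fold, and with Atf4-/- replicate 1 alone 2 transporters were higher.

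The cytosolic and the mitochondrial tRNA synthetases, which load amino acids onto tRNA, had unlike counts. Of 21 cytosolic members, including scaffold proteins of the complex, 16 were lower, 1 higher and 4 not called (median -0.59), and 9 were lower by at least 2-fold. Of 16 mitochondrial members, 3 were lower, 5 higher and 8 not called (median 0.04), none by 2-fold, and with Atf4-/- replicate 1 alone 1 was lower and 2 higher. Cars, for cysteine, read 9.93, 9.97 and 10.09 in WT and 7.28, 7.41 and 7.34 in Atf4-/- cells (-2.65 ± 0.07, 6.28-fold). Aars (-1.62 ± 0.06), Tars (-1.61 ± 0.06), Yars (-1.57 ± 0.08), Sars (-1.44) and Gars (-1.18) followed. Kars (0.13), Hars (0.14) and Farsa (0.04) were not called, and the higher member was the scaffold protein Aimp1 (0.23), with 2 higher without Atf4-/- replicate 3. The difference between the lists was not tested.

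**Figure D3:**
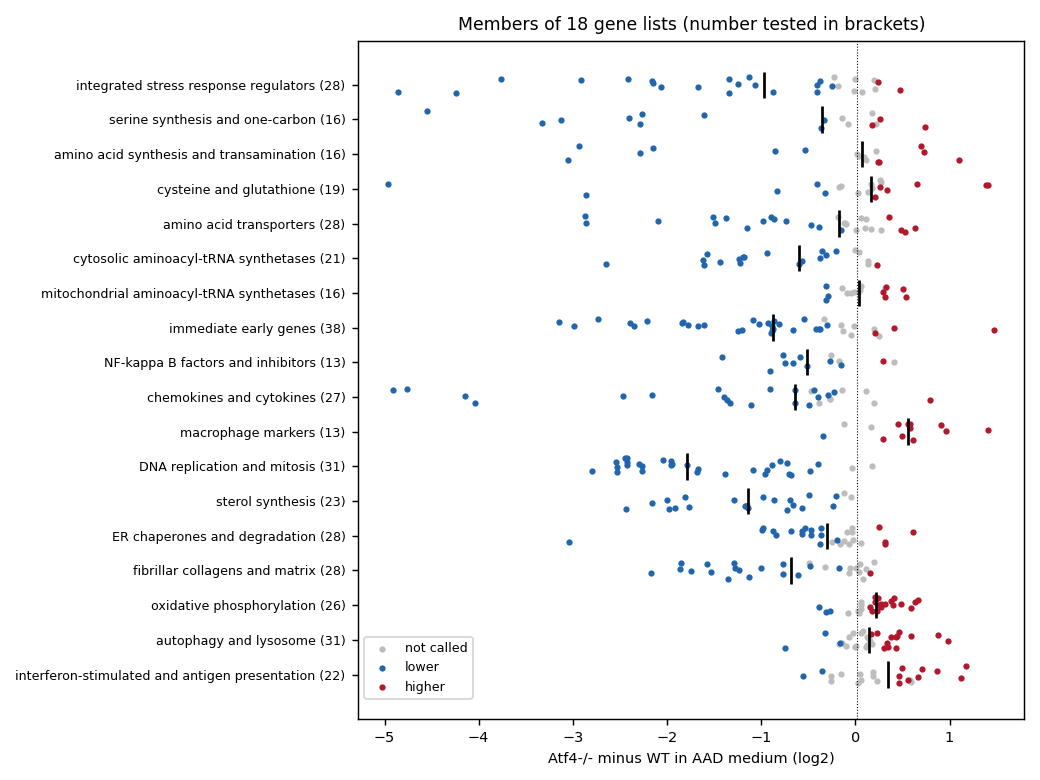
Difference Atf4-/- minus WT in AAD medium (log2, horizontal axis) of each tested member of 18 gene lists, with a point for each gene coloured by its call, a black bar for the median of the list and a dotted line for the median of all autosomal genes tested. DNA replication and mitosis (median -1.79), sterol synthesis (-1.14) and stress response regulators (-0.97) lie farthest left.

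The immediate early genes, transcription factors and feedback inhibitors that respond to signals within an hour, were lower in the starved Atf4-/- cells. Of 38 members, 28 were lower, 3 higher and 7 not called (median -0.88), and 15 were lower by at least 2-fold. Egr1, a zinc finger factor, read 13.27, 13.09 and 13.20 in WT AAD arrays and 10.49, 10.56 and 10.30 in Atf4-/- AAD arrays (-2.74 ± 0.18, 6.66-fold). Fos read 10.71, 10.54 and 10.45 against 7.56, 7.52 and 7.66 (-2.98 ± 0.17, 7.92-fold). The Fos and Egr1 arrays were tight within each genotype and separated by over 2 log2 units. Ier2 differed by -2.39 ± 0.17. Egr3 differed by -3.15 ± 0.21 in its brightest probe set and by -0.02 in its other one. The 3 higher members were Klf2 (1.47 ± 0.08), Klf11 (0.41) and Btg1 (0.21), and with Atf4-/- replicate 1 alone 26 were lower and 1 higher.

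In normal medium the same list was not displaced downward: 10 of its 38 members were lower, 15 higher and 13 not called, with a median of 0.10. That comparison used other arrays of both genotypes, but it is not independent of the comparison in AAD medium. Within a genotype, same-numbered arrays of the media deviated together (correlations of 0.412 to 0.672). Over all autosomal genes 51.6% were called in normal medium, 30.1% higher and 21.4% lower. The difference of the genotype effect between media, tested per gene, was called for 1703 of 13224 genes (12.9%), lower for 938 (7.09%) and higher for 765 (5.78%), and by at least 2-fold for 170 (1.29%) and 38 (0.287%). Of the 38 immediate early genes it was lower for 29 and higher for 1, and lower by at least 2-fold for 21. With the replicate number as a block within genotype, for which the pairing of arrays across media is given under the processing, the difference was lower for 1579 genes and higher for 1625. With Atf4-/- replicate 1 of each medium alone it was lower for 356 and higher for 106.

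Atf3, Ddit3 and Jun stood on opposite sides of WT in the 2 media. Atf3, a bZIP factor of the stress response, read 10.78, 10.74 and 10.69 in WT and 8.84, 9.28 and 9.06 in Atf4-/- cells in AAD medium (-1.67 ± 0.12). In normal medium it read 7.19, 7.15 and 6.86 in WT and 8.61, 8.56 and 8.26 in Atf4-/- cells (1.41 ± 0.12). So every Atf4-/- array lay above every WT array in normal medium and below every WT array in AAD medium. The difference between media was -3.08 ± 0.17 (adjusted p = 2.39e-08, limma). Atf3 was 3.67 higher in AAD than in normal medium in WT cells and 0.59 ± 0.12 higher in Atf4-/- cells.

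Ddit3, which encodes the death-promoting factor CHOP, showed the same crossing, with -1.07 ± 0.10 in AAD and 0.67 ± 0.10 in normal medium. It read 11.19, 11.03 and 11.35 in WT AAD arrays and 10.20, 10.07 and 10.08 in Atf4-/- AAD arrays, and Ddit3 was also higher in AAD than in normal medium in Atf4-/- cells (0.85 ± 0.10, adjusted p = 1.2e-04, limma). Jun, a member of AP-1 named after its values were seen, differed by -1.02 ± 0.12 in AAD and 0.74 ± 0.12 in normal medium, and its level in Atf4-/- cells was 11.38 ± 0.17 in normal and 11.35 ± 0.18 in AAD medium. Bcl6, a repressor, crossed with -1.03 ± 0.06 and 0.48 ± 0.06. Of the 555 genes lower by at least 2-fold in AAD, 11 were higher in normal medium, and of the 470 higher ones 2 were lower there, Inka1 (1.15 ± 0.16 and -0.88 ± 0.16) and Tmppe (1.01 ± 0.11 and -0.36 ± 0.11).

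A further group met WT in normal medium and stood below it in AAD medium. Fgf21, a hormone secreted by starved tissues, read 6.53, 6.26 and 7.36 in WT AAD arrays and 4.65, 4.27 and 4.33 in Atf4-/- AAD arrays (-2.30 ± 0.20), against a difference of -0.29 ± 0.20 (adjusted p = 0.25, limma) in normal medium. The WT AAD arrays of Fgf21 were uneven with replicate 3 highest, and the WT arrays in normal medium and all Atf4-/- arrays stood between 4.27 and 5.06, near the dim range. Nfil3 differed by -0.17 ± 0.09 in normal medium and -2.06 ± 0.09 in AAD medium. Myc and Edn1 (the vasoconstrictor endothelin), both named after their values were seen, differed by 0.11 ± 0.10 and -0.02 ± 0.19 in normal medium and by -1.78 ± 0.10 and -2.22 ± 0.19 in AAD medium. For Egr1 the difference in normal medium was 0.27 ± 0.18. The converse was seen for Ppp1r15a (2.23 ± 0.08 in normal, -0.18 ± 0.08 in AAD) and Klf4 (1.72 ± 0.10 and 0.19 ± 0.10, named after its values were seen), which stood above WT in normal medium and near it in AAD medium.

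**Figure D4:**
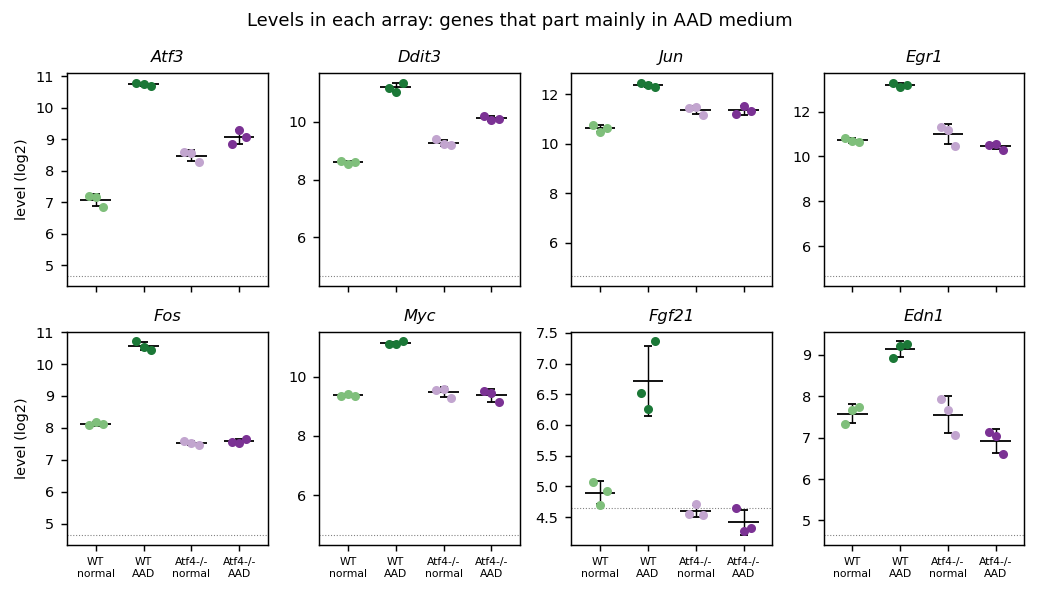
Level (log2, vertical axis) of 8 genes in each of the 12 WT and Atf4-/- arrays by genotype and medium, with points for arrays, bars for means of 3 arrays, error bars for the SD and a dotted line at 4.65. Atf3, Ddit3 and Jun lie above WT in normal medium and below it in AAD medium, while the Atf4-/- arrays of Fos and Myc are at like levels in both media.

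Most of the large differences were nonetheless present in both media. The comparisons in the media are not independent, since same-numbered arrays of the media deviated together within a genotype. Of the 555 genes at least 2-fold lower in AAD medium, 504 (90.8%) were lower in normal medium and 393 (70.8%) by at least 2-fold, which is 76.0% of the 517 genes (3.91% of all tested) at least 2-fold lower there. Of the 470 higher ones, 452 (96.2%) were higher in normal medium and 293 (62.3%, and 64.0% of the 458 higher there, 3.46% of all tested) by at least 2-fold. Among stress and amino acid genes, Aldh1l2 (-4.78 in normal, -4.55 in AAD), Bcat1 (-3.20 and -3.05), Psph (-3.07 and -3.33), Asns (-1.98 and -2.28) and Chac1 (-4.04 and -4.24) had differences between media that were not called. Trib3 (-2.82 and -4.86), Slc7a11 (-1.61 and -2.86), Cebpg (-1.36 and -2.42), Slc3a2 (-0.55 and -1.50) and Herpud1 (-1.80 and -3.04) had a called one. For Trib3 it was -2.04 ± 0.26 (adjusted p = 6.38e-05, limma). The calls on differences between media in this paragraph come from the fit without a replicate block, and the blocked fit is not given by gene. In WT cells Trib3 was 2.16 and Slc7a11 1.19 higher in AAD than in normal medium, and in Atf4-/- cells their differences between media were small (0.12 ± 0.18 and -0.06 ± 0.13, neither called, where 4.76% of all genes were).

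**Figure D5:**
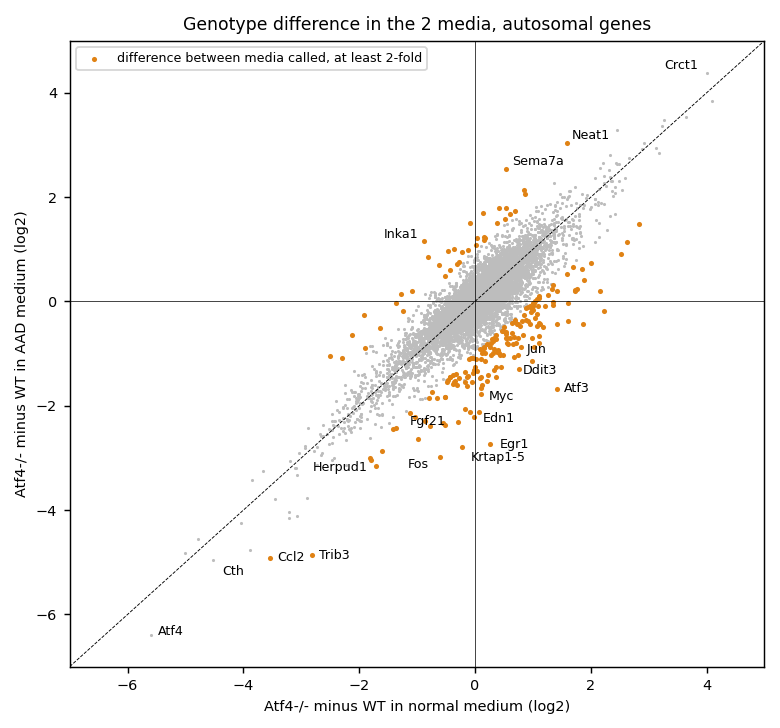
Difference Atf4-/- minus WT in AAD medium (log2, vertical axis) against the same difference in normal medium (log2, horizontal axis) for 13224 autosomal genes, with the dashed line marking equal differences and orange points a called difference between media of at least 2-fold. Cth and Atf4 lie in the lower left corner with large differences in both media, and Egr1, Edn1 and Krtap1-5 lie below 0 in AAD medium with normal-medium values near 0.

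Chemokines and cytokines were lower as a list. Of 27 members, 19 were lower, 1 higher and 7 not called (median -0.64), and 11 were lower by at least 2-fold. Ccl2, which attracts monocytes, read 10.60, 10.63 and 10.52 in WT and 5.55, 5.68 and 5.80 in Atf4-/- cells (-4.91 ± 0.21, 30.1-fold). Il6 read 9.46, 9.58 and 9.70 against 4.61, 5.27 and 4.59 (-4.76 ± 0.32), with 2 of the Atf4-/- arrays in the dim range. The Ccl2 arrays of the mutant cells stayed above that range. Ccl7 differed by -4.15 ± 0.31, Cxcl5 by -4.04 ± 0.35 and the pattern receptor Ptx3 by -4.12 ± 0.32. Cxcl5 varied within WT too (8.14, 8.10 and 6.96). The 1 higher member, Il11 (0.80 ± 0.30, adjusted p = 0.0323, limma), lost its call without WT replicate 3, without Atf4-/- replicate 2 or without replicate 3.

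Inhibitors and factors of NF-κB, a regulator of inflammatory genes, were lower in AAD medium in 9 of 13 members, with 1 higher (2 without replicate 1 of WT or of Atf4-/-) and 3 not called (median -0.51). Of those 9, 1 was lower, 1 higher and 7 not called in normal medium. The feedback inhibitor Tnfaip3 differed by -1.41 ± 0.12 in AAD and 0.23 ± 0.12 in normal medium, and Nfkbia by -0.59 ± 0.11 in AAD medium. Macrophages, which MEF cultures can hold and which make chemokines, were read through 13 markers, all above 4.65 in some group. Of these, 10 were higher in Atf4-/- cells, 1 lower (Aif1, -0.34) and 2 not called (median 0.56), and the mean of the markers was 7.23 to 7.43 in WT AAD arrays and 7.71 to 8.03 in Atf4-/- AAD arrays. Lyz2, lysozyme of myeloid cells, differed by 1.41 ± 0.18 and Tyrobp by 0.97 ± 0.17. So the macrophage markers and the chemokines differed in opposite directions, and the part of these cells in the chemokine levels was not tested. Aif1 lost its call when single arrays were left out, other than Atf4-/- replicate 1. Only 6 markers were higher without Atf4-/- replicate 3, and 4 with replicate 1 alone. In these bulk cultures, fewer cells of a type and less RNA per cell cannot be told apart.

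The genes of DNA replication and mitosis were lower almost throughout. Of 31 members, 29 were lower, 0 higher and 2 not called, E2f1 (-0.03) and Tyms (0.17), with a median of -1.79. Tyms averaged 3.97 in WT and 4.14 in Atf4-/- cells, in the dim range, so a fall could hardly be seen. Mki67, a marker of dividing cells, read 10.92, 10.88 and 10.90 in WT and 8.86, 8.38 and 7.82 in Atf4-/- cells (-2.55 ± 0.25). The WT arrays agreed closely, and the Atf4-/- arrays spread over a log2 unit with replicate 3 lowest. Replicate 3 was also the lowest array for Plk1 (6.58, 6.40 and 5.85 against 9.06, 9.12 and 9.04, -2.80 ± 0.20), Ccnb2 (-2.53 ± 0.24) and Cdc20 (-2.53 ± 0.14). All 29 were lower in normal medium as well, where the median of the list was -1.70. With Atf4-/- replicate 1 alone 29 were lower.

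Sterol synthesis was lower in both media. Of 23 members, 21 were lower, 0 higher and 2 not called in AAD medium (median -1.14), and 22 were lower in normal medium (median -1.19). The isomerase Idi1 read 10.08, 10.32 and 10.34 in WT and 7.83, 7.82 and 7.79 in Atf4-/- cells (-2.43 ± 0.09, 5.40-fold). Cyp51 (-2.16 ± 0.12), Hmgcs1, which starts the mevalonate pathway (-1.98 ± 0.10), and the sterol carrier Stard4 (4.01-fold) were also lower. The regulator Srebf1 (-0.05) and Sc5d (-0.12) were not called.

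Endoplasmic reticulum chaperones and degradation genes were lower in 15 of 28 members, higher in 4 and not called in 9 (median -0.30). Only Herpud1, which helps clear misfolded proteins, passed 2-fold, at 11.22, 11.17 and 11.18 in WT and 8.08, 8.27 and 8.12 in Atf4-/- cells (-3.04 ± 0.07). The disulphide oxidase Ero1a (-0.98), the stress response factor Xbp1 (-0.87) and the isomerase Pdia4 (-0.84) were lower by less than 2-fold. The chaperone Hspa5 differed by -0.37.

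More matrix genes were lower than higher. Of 28 collagens and other matrix genes, 17 were lower, 1 higher (Lox, 0.16) and 10 not called (median -0.69), and 16 of the 17 were lower in normal medium. Lox, an enzyme that crosslinks collagen, lost its call when WT replicate 1 or 2 or Atf4-/- replicate 1 or 3 was left out, and with centred arrays. Col1a1, the main chain of collagen of connective tissue, read 11.73, 11.74 and 11.74 in WT and 9.84, 9.56 and 9.32 in Atf4-/- cells (-2.17 ± 0.15, 4.49-fold). Col6a1, Col6a2 and Col6a3, the chains of collagen VI, differed by -1.85, -1.74 and -1.86. Fmod, a proteoglycan that binds collagen fibrils, read 9.64, 9.93 and 9.86 in WT and 4.78 to 5.16 in Atf4-/- cells (-4.83 ± 0.28). It belongs to a separate list of 7 small leucine-rich proteoglycans. Of these, 2 were lower (Fmod and Aspn, -2.42), 1 higher (Lum, 1.89) and 4 not called, and with centred arrays 4 were lower. Of 11 fibroblast markers 6 were lower, led by S100a4 (-2.77 ± 0.14), 1 was higher (Pdgfra, 0.75 ± 0.16), and Vim, Fn1, Twist1 and Prrx1 were not called. The part of cell composition in these differences was not tested.

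Secreted stress factors went both ways, with 4 of 12 lower, 4 higher and 4 not called. Lif, a cytokine of the interleukin 6 family, differed by -2.46 ± 0.21, and by -0.52 in another probe set. The vessel growth factor Vegfa differed by -1.36 ± 0.12. In normal medium the Lif and Vegfa differences were -2.47 and -1.25. Adm, the vasodilator adrenomedullin, was higher by 1.56 ± 0.23. The next list joined brakes on mTORC1, the growth kinase that senses amino acids, with the folliculin complex, so not every member is a brake. Of its 21 members, 9 were higher, 6 lower and 6 not called. Sesn2, a leucine sensor, was lower (-2.15 ± 0.22), and the GTPase Rragd (2.37) and Castor2, an inhibitor of the GATOR2 complex (1.44), were higher. Of the other sestrins, Sesn1 (0.91) and Sesn3 (1.05) were higher.

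Of the higher genes, the 15 largest were Crct1, Sprr1a, Lce1l, Lce1h, Atp6v0e2, Serpinb2, Neat1, Cpn1, Thsd7a, Serpinb9b, Nrcam, Mmp10, Ccdc85a, Sema4f and Arrdc3. They ran from 4.38 to 2.65. Crct1, a gene of the cornified layer of skin, read 6.65, 6.30 and 6.63 in WT and 10.34, 10.76 and 11.63 in Atf4-/- cells (4.38 ± 0.31, 20.8-fold). Sprr1a, a small proline-rich protein of the same layer, read 6.56, 6.39 and 6.30 against 9.78, 10.09 and 10.91 (3.84 ± 0.46), and Lce1h 10.19, 9.55 and 9.35 against 13.14, 13.03 and 13.34 (3.47 ± 0.19). Crct1, Sprr1a, Lce1l and Lce1h lie on chromosome 3, and in each the highest Atf4-/- array was replicate 3. As families, chosen after the largest rises were seen, 3 of 5 Sprr genes and 5 of 11 Lce genes tested were higher and 0 of either lower, while of 7 serpin B genes 2 were higher, 2 lower and 3 not called (median 0.01). Epithelial markers, with 10 tested, were higher in 0, lower in 1 (2 without WT replicate 1 or 2) and not called in 9, and their mean was 4.92 to 5.02 in the WT AAD arrays, with the Atf4-/- AAD arrays between 4.77 and that range.

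The other large rises were of mixed kind. Atp6v0e2, a subunit of the proton pump of acidic organelles, read 5.98, 5.57 and 5.59 in WT and 9.03, 9.10 and 9.11 in Atf4-/- cells (3.37 ± 0.12). Serpinb2, an inhibitor of plasminogen activators, read 7.52, 8.19 and 8.14 against 11.28, 11.15 and 11.31 (3.29 ± 0.25). The long noncoding RNA Neat1 differed by 3.05 ± 0.26, but its second probe set by -0.08. The cell adhesion gene Nrcam differed by 2.85 ± 0.08, and 2 other probe sets above the filter by 0.65 and -0.00. For Sema4f a second probe set differed by 0.28, against 2.65 for the brightest. Lce1l, Cpn1, Nrcam and Ccdc85a had WT AAD levels of 2.69, 4.41, 3.70 and 2.98, in the dim range. For 14 of these 15 genes the difference between media was not called in the fit without a replicate block. Neat1 (1.59 in normal medium) was the exception. Sema7a, named after its values were seen, was 2.54 ± 0.18 higher in AAD and 0.54 ± 0.18 in normal medium.

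Oxidative phosphorylation genes were slightly higher. Of 26 members, 17 were higher, 3 lower and 6 not called (median 0.22), none by 2-fold, led by Sdhb (0.67 ± 0.05). With arrays centred on their medians 13 were higher. In normal medium 9 were higher and 6 lower. Autophagy and lysosome genes were higher in 13 of 31, lower in 3 and not called in 15 (median 0.15), led by Nbr1 (0.99 ± 0.10). For that list 8 were higher with Atf4-/- replicate 1 alone, and 5 lower with centred arrays. Interferon-stimulated and antigen presentation genes were higher in 9 of 22, lower in 2 (4 with centred arrays, 1 with Atf4-/- replicate 1 alone) and not called in 11 (median 0.35), led by Usp18 (1.17 ± 0.27). Of 24 cytosolic ribosomal protein genes 8 were higher, 2 lower and 14 not called (median 0.07). The share that was higher, 33.3%, is close to the 31.4% over all genes. Only 3 were higher with centred arrays, and 5 without WT replicate 1 or without Atf4-/- replicate 2.

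The calls were spread over the genome. The share of genes called ran from 50.9% to 57.3% over the autosomes. Of the 20 tested genes nearest to Atf4 on chromosome 15, 9 were called and 1 differed by at least 2-fold, the growth factor gene Pdgfb (-1.38). That is a description of the surroundings of the targeted gene, and no test of linked strain differences was made.

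Beside these values stand those of the Cebpg-/- cells in AAD medium against the same WT arrays, given for the partner of ATF4. The comparisons share the WT AAD arrays, so no overlap between them is given. Xist stood at 11.93 to 12.15 in the 3 Cebpg-/- AAD arrays and at 5.28 to 5.50 in the 3 WT arrays, and Kdm5d, Eif2s3y and Uty at 2.72 to 3.10 and 7.04 to 8.28, so sex and genotype cannot be told apart there. In the Cebpg-/- comparison 29.5% of genes were called, 16.2% higher (2145 genes, and 1414 without WT replicate 3) and 13.3% lower. For Cth the difference was -3.04 ± 0.16 in Cebpg-/- and -4.96 in Atf4-/- cells, for Trib3 -2.05 ± 0.18 and -4.86, for Pck2 -2.14 ± 0.09 and -3.20, and for Aldh1l2 -1.43 ± 0.12 and -4.55. For Nupr1 (-0.06 ± 0.29), Chac1 (-0.54 ± 0.22) and Phgdh (0.36 ± 0.18) the Cebpg-/- difference was not called, and Atf4 itself was at -0.15 ± 0.09. Among the DNA replication and mitosis genes 0 of 31 were called in Cebpg-/- cells, and among sterol genes 20 of 23 were lower. Of 13 macrophage markers 12 were higher there, with means of 7.93 to 8.28. Differences between the knockouts were not tested.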

How the data were processed

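Gene expression was measured on 18 arrays, 3 for each genotype and medium. The authors deposited log2 values of 45101 probe sets, made with RMA per the submitters' processing notes (version not given in the sources used here), and they were used without further normalization. Of the probe sets, 34958 had 1 gene symbol, 932 several and 9211 were not listed, and only the first kind was used. The brightest probe set stood for a gene, and 13728 genes whose highest group mean passed 4.65, the 40th percentile, were tested.

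The model, run in limma 3.58.1 (R 4.3.3), held a mean for each group over all 18 arrays, with moderated variances and 12 residual degrees of freedom. On simulated data for the main comparison, 96% of 2-fold changes were recovered in 13728 genes, with 13 false calls. The simulated arrays were independent and 13528 genes were left unchanged, whereas 54.3% of autosomal genes were called in these data. The simulated figures therefore need not hold for this comparison. The members and the gene lists were chosen with earlier results of these data known. The rule for named genes took Cebpg and Atf4, and among called genes past 2-fold whose arrays do not overlap the 15 that rose most and the 15 that fell most, the 4 largest called differences in each list, any member of the stress response, amino acid and tRNA synthetase lists, and genes in counts of 5 or fewer. Others are said to have been chosen later.

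Same-numbered WT and Atf4-/- arrays in AAD medium did not deviate together (correlations of -0.149, 0.163 and -0.0361), so numbers do not pair the genotypes. Within a genotype, same-numbered arrays of the 2 media did (0.412 to 0.672), and a replicate block within genotype is given for the difference between media. Alternatives changed the filter, scaling, probe set rule, variance prior, block and arrays used.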

Additional observations from a re-analysis of the deposited data

Results flagged for a closer look

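The genotype difference was not the same in both media for part of the genes, by a test of the difference itself (limma, adjusted over all genes tested). It was higher in AAD medium than in normal medium for 765 autosomal genes and lower for 938. Without a replicate block, 4 of the 30 largest falls and rises had a called difference between media. They were Atf4 (-0.80), Ccl2 (-1.37), Trib3 (-2.04) and Neat1 (1.46). Trib3 and Ccl2 stood farther below WT in AAD medium than in normal medium, and Neat1 farther above. The Neat1 value rests on 1 of its 2 probe sets. Groups of 3 arrays were not tested for single deviating arrays.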

How the results depend on the processing

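The counts of genes higher and lower in Atf4-/- against WT, in each medium, stayed within 1.5 times under every alternative run. In AAD medium, leaving out single arrays gave 3767 to 3952 genes higher and 2766 to 2865 lower. With the replicate block across genotypes there were 4020 genes higher and 2947 lower, and with the replicate block within genotype 4141 and 3018. The difference between media moved most: with the replicate block within genotype it was higher for 1625 genes and lower for 1579, and with the low-Xist Atf4-/- arrays alone, an alternative chosen after seeing the data, for 106 and 356, where fewer arrays entered. Leaving out single arrays gave 513 to 762 higher and 784 to 889 lower. For Cebpg-/- cells, genes higher ranged from 1414 to 2070 when single arrays were left out. Centring arrays on their medians lowered the share of calls that were higher from 57.7% to 44.5%, against 55% with quantile normalization again. With the mean of all probe sets, Ears2 (-0.17), Impact (0.28), Rps3 (-0.12), Slc7a6 (-0.13) and Vars2 (0.24) reversed in sign. Their brightest probe sets differed by 0.05, -0.003, 0.27, 0.06 and -0.04, in that order. With the mean, Rps3 was not called (adjusted p = 0.0565, limma). Other probe sets of each of these genes had the opposite sign to the brightest, and the cause of that was not tested. Of 283 named genes, 249 kept their call or lack of it with Atf4-/- replicate 1 alone, 32 lost it and 2 gained one. Levels near or under 4.65 leave the size of a fall less certain, and 3 arrays a group limit the precision.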

Other observations

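Gene groups outside the comparisons described above were read with the same fit in AAD medium. Among secreted WNT modulators and related genes, 7 of 21 were lower (11 with the mean of all probe sets and 10 with centred arrays), 2 higher and 12 not called, with Ccn4 at -2.04, Dkk3, a secreted glycoprotein, at -1.77 and Sfrp2, a WNT antagonist, at -1.56 below WT, and Dkk2 at 1.44 above it. Insulin-like growth factors and their binding proteins divided, with 5 of 12 lower and 4 higher. Igfbp5 differed by -2.28, with another probe set at -0.10, and Igfbp7 by -1.18, with other probe sets at -1.78 and 0.06. Igf2 differed by 1.37 and Igfbp3 by 1.28. Matrix proteases and inhibitors divided as well, with 5 of 16 lower, led by Adamts5 (-2.26), which cleaves aggrecan, and 4 higher, led by Mmp10 (2.81) and Mmp13 (1.97).

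Of 21 p53 targets, 10 were higher and 8 lower, with Perp, a membrane protein, at 2.57 and Pmaip1, a BH3-only death protein, at 1.36 above WT, and Sesn2 and Btg2 at -2.15 and -1.84 below it. Of 21 hypoxia and glycolysis genes, 10 were lower and 5 higher, Pfkl (-1.11) lower and Ankrd37 (1.51) and Egln3 (1.16) higher. Other Pfkl probe sets differed by -0.62 and 0.20. Of 20 NRF2 targets and antioxidants, 7 were lower, among them Nqo1 (-1.65), a quinone reductase, and 5 higher, among them Hmox1 (1.41), heme oxygenase. With centred arrays 11 of the 20 were lower and 3 higher.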
